A study of Mus musculus with 2 samples.

Results

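The genes described here encode the folliculin complex and the Rag GTPases: Flcn, Fnip1, Fnip2, Rraga, Rragb, Rragc and Rragd. They were chosen by gene symbol, and all 7 were found among the 32285 genes of a single-nucleus count matrix. The nuclei were those of tumour-associated macrophages (TAMs) of PyMT mice, in which the polyoma middle T oncogene gives rise to mammary tumours. Of the 2 samples, one was from MYC-PyMT mice (S100a8-cre with the cre-dependent Rosa26-LSL-MYC allele, on a PyMT background) and one from control-PyMT mice. In both, recipients were lethally irradiated at 7 weeks of age, received marrow cells from donors with Fcgr1-cre and a cre-dependent H2B-mCherry allele at Rosa26, and were fed a low protein diet that began 2 weeks later and lasted 6 weeks. The S100a8 promoter drives cre mainly in cells of the neutrophil line, and donors are listed without an allele of MYC. The mCherry label marks nuclei of donor cells that have at some time expressed Fcgr1, so macrophages of host origin carry none. TAMs were sorted as CD45, F4/80 and Vcam positive and Siglec-F, Ly6G, B220 and Ly6C negative cells, and their nuclei again as mCherry and SYTO9 positive and CD11b negative. Barcodes carried 1 of 2 suffixes, and the sources used here do not say which suffix belongs to which genotype. The genotypes were therefore not compared, all nuclei were treated as 1 pooled sample, and no test was made. Intervals are 95% intervals for counting error alone.

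Folliculin (FLCN) binds FNIP1 or FNIP2 at the lysosome, where the complex acts as a GTPase-activating protein for RagC and RagD. A Rag dimer pairs RagA or RagB with RagC or RagD, and, when amino acids are plentiful, it brings mTORC1 to the lysosomal surface. The GDP-bound form of RagC or RagD, made by folliculin, also binds the transcription factors TFEB and TFE3, whose phosphorylation by mTORC1 keeps them out of the nucleus. In the nucleus these factors activate lysosomal genes, and genes for parts of this machinery, among them those for RagC, RagD and the FNIP proteins, have been described as their targets.

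MiT/TFE factors bind an E-box with the core CACGTG, often followed by A. The windows from 250 bases before to 50 bases after the RefSeq start sites (build GRCm38.p6, found for 7 of 7 members) were searched for these letters on both strands. Those of Fnip1, Fnip2, Rragc and Rragb are shown, as the first 3 genes were the most abundant members and Rragb held the most matches. Capitals mark CACGTGA (which contains CACGTG) and GTCATATGAC, the longest run of letters shared by the Fnip1 and Fnip2 windows on the strand shown, which was picked after the sequences were seen.
Fnip1 (chr11:54437929-54438228, plus strand): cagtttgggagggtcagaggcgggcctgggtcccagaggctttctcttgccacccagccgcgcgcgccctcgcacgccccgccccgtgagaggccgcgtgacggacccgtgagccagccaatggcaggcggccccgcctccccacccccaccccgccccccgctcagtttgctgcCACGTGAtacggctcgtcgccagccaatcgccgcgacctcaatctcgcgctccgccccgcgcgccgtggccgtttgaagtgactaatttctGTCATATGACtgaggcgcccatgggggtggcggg
Fnip2 (chr3:79567630-79567929, minus strand): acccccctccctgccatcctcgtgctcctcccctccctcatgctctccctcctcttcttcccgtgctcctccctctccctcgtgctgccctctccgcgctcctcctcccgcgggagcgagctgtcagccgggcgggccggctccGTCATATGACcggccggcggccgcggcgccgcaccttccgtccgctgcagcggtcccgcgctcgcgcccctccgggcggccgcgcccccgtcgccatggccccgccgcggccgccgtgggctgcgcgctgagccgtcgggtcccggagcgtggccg
Rragc (chr4:123917183-123917482, plus strand): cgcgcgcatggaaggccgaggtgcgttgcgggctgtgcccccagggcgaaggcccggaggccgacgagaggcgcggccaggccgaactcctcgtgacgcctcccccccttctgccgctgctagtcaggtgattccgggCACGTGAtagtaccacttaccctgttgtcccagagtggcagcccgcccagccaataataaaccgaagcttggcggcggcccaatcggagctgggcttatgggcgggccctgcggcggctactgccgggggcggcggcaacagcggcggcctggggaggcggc
Rragb (chrX:153139708-153140007, plus strand): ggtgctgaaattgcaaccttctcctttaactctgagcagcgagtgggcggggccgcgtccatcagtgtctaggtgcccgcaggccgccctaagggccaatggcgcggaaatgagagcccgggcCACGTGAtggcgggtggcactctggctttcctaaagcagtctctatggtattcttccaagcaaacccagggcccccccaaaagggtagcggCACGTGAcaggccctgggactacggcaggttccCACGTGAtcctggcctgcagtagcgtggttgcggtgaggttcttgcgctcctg

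CACGTG stood 75 bases before the start site of Fnip1, 112 before that of Rragc, and 127, 36 and 3 before that of Rragb. Each of these 5 matches was followed by A, and the windows of Fnip2, Flcn, Rraga and Rragd held none. Of 32817 RefSeq windows of the same length, 7.15% held CACGTG and 3.76% held CACGTGA on either strand. The shared run, a palindrome of 10 letters, lay 16 bases after the start site of Fnip1 and 106 before that of Fnip2, and 14 windows (0.0427%) held it. A match describes letters in a window and not a bound site. GENCODE places the start of Fnip2 upstream of the RefSeq start, so that its run lies inside the GENCODE gene.

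The matrix held 1838 barcodes and 7381447 unique molecular identifiers (UMIs, which count distinct RNA molecules). After 21 barcodes were removed by the filters and 5 as doublets, 1812 nuclei remained, with a median of 2601 UMIs (500 to 103328). Suffix 1 held 1377 of these nuclei and suffix 2 held 435, and 9 barcode sequences occurred with both suffixes. Classes were set by per-nucleus gates, in which the members took no part. A macrophage-lineage nucleus entered the first class, in the order resident-like, Gpnmb-positive, Mmp12-high and stress, whose gate genes reached 500 CPM (UMIs of a gene per 1000000 UMIs counted) with at least 2 UMIs, and the others were called other macrophages. The gate genes were F13a1 and Mrc1 for resident-like nuclei, Fosb and Atf3 for stress nuclei, and the name-giving gene elsewhere. The Gpnmb-positive class held 21 nuclei (20 of suffix 2, median 4525 UMIs), the Mmp12-high class 109 (8 of suffix 2, 3337 UMIs), the stress class 269 (50 of suffix 2, 2744 UMIs) and the resident-like class 264 (201 of suffix 2, 3062 UMIs). Epithelial nuclei numbered 229 (17 of suffix 2, 5609 UMIs) and other macrophages 526 (83 of suffix 2, 2762 UMIs). These 6 classes held 78.3% of the nuclei, and 394 nuclei lay outside them. Epithelial nuclei were called where 15 epithelial markers outweighed the macrophage markers. Their summed 4466 CPM of these markers, against 246 CPM in other macrophages, therefore follows from the rule. All 15 markers had a UMI in other macrophages as well. The presence of epithelial nuclei goes against a sort for CD45 and a marrow-borne label.

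Genes used in no gate bore on the class names. Genes of lipid-associated macrophages outside the gate (Spp1, Fabp5, Trem2, Lpl, Cd9 and Cd63) summed to 1625 CPM in Gpnmb-positive nuclei and 473 CPM in other macrophages. Spp1 gave 766 CPM of the sum in Gpnmb-positive nuclei and 101 CPM in other macrophages, while Lpl was at 30.7 CPM in Gpnmb-positive nuclei and 52.8 CPM in other macrophages. The list stood at 1796 CPM in epithelial nuclei, so it does not mark the Gpnmb-positive class alone. Further resident genes (Lyve1, Cd163, Folr2, Cd209f, Cd209g and Maf) summed to 1187 CPM in resident-like nuclei and 135 CPM in other macrophages, with Cd209f and Cd209g at 0 in both. Further stress genes (Fos, Jun, Egr1, Nr4a1, Hspa1a and Hspa1b) summed to 5819 CPM in stress nuclei and 1004 CPM in other macrophages. Gates overlapped: 11 of the 21 Gpnmb-positive and 61 of the 109 Mmp12-high nuclei also passed the stress gate. Of the Gpnmb-positive nuclei, 8 lay under 2 times the minimum, and 14 macrophage nuclei lay just outside the gate.

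Across the 1189 macrophage-lineage nuclei the FNIP genes gave most of the members' UMIs. Fnip2 (chr3:79455974-79567796) stood at 832 CPM (803 to 861) and Fnip1 (chr11:54438199-54518235) at 609 CPM (585 to 634). Rragc (chr4:123917446-123936997) stood at 164 CPM and Flcn (chr11:59791408-59810016) at 45.1 CPM. Rraga (chr4:86575668-86577285), Rragd (chr4:32983037-33022180) and Rragb (chrX:153139981-153171943) stood at 18.4, 5.44 and 1.81 CPM.

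The sources used do not say whether introns were counted. Where they are, long genes can collect more UMIs in nuclei, so members were compared per kilobase of gene. On that scale Rraga, a gene without introns, was highest, at 11.4 CPM per kilobase. Rragc (8.38), Fnip1 (7.61) and Fnip2 (7.44 CPM per kilobase) were close together, and Flcn followed at 2.42. Rragd (0.139) and Rragb (0.0568 CPM per kilobase) were far below. Per kilobase of exon the order was Fnip2 (99.4), Fnip1 (85.6), Rragc (49.0), Rraga (11.4) and Flcn (10.4 CPM per kilobase), so the place of Rraga depends on the length used. RagA and RagB are alternative partners in the Rag dimer, as are RagC and RagD. Over all nuclei 1 gene of each pair held most UMIs: Rraga had 143 UMIs against 11 of Rragb, and Rragc had 808 against 52 of Rragd. For Rragc and Rragd the balance was less uneven in Gpnmb-positive nuclei (22 and 7 UMIs) and epithelial nuclei (120 and 27) than in other macrophages (225 and 3).

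Fnip1 and Fnip2, which encode the partners of folliculin, were higher in Gpnmb-positive nuclei than in any other class. Fnip2 reached 4363 CPM (3959 to 4797) in Gpnmb-positive, 980 CPM in Mmp12-high, 851 CPM in stress, 681 CPM in resident-like, 92.6 CPM in epithelial nuclei and 659 CPM (620 to 699) in other macrophages. Gpnmb-positive nuclei thus had 6.62 times (5.91 to 7.42) the Fnip2 level of other macrophages. Fnip1 stood at 1900 CPM (1637 to 2194) in Gpnmb-positive, 791 CPM in Mmp12-high, 762 CPM in stress, 469 CPM in resident-like, 242 CPM in epithelial nuclei and 489 CPM (456 to 524) in other macrophages. Its ratio in Gpnmb-positive nuclei was 3.88 (3.29 to 4.56). The intervals of Mmp12-high and stress nuclei overlap for both genes, as do those of resident-like nuclei and other macrophages.

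**Figure D1:**
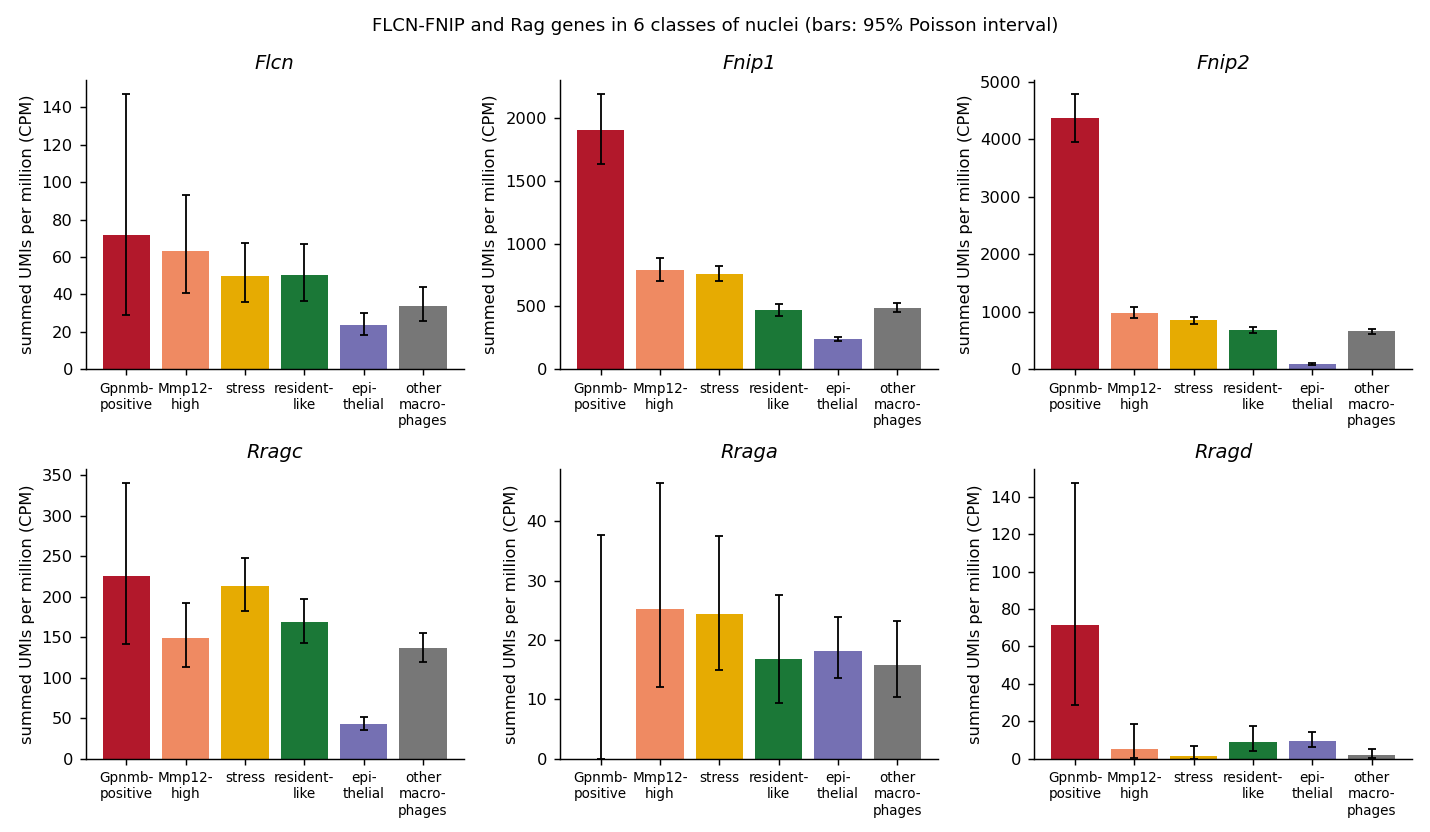
Summed level in CPM of 6 members (Rragb, with 11 UMIs, is left out) in the 6 classes of nuclei, each panel with its own axis from 0; lines are 95% Poisson intervals. Fnip2 stands at 4363 CPM in Gpnmb-positive nuclei and at 659 CPM in other macrophages, while the Rraga intervals of all classes overlap.

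Among genes with at least 30 UMIs over both classes, 11.7% were at least 2-fold higher and 27.6% had a ratio of 0.5 or less in Gpnmb-positive nuclei relative to other macrophages, and the median ratio was 0.842. Of the 4 members with that many UMIs, 3 (Fnip2, Fnip1 and Flcn) were at least 2-fold higher and none had a ratio of 0.5 or less. A ratio above that of Fnip2 was seen in 84 of 7147 genes, but in none of the 104 genes with at least as many UMIs. For Fnip1, 4 of 228 genes with at least as many UMIs had a higher ratio: Fnip2, Neat1 (6.57), Aopep (4.57) and Ftl1 (4.02). The FNIP genes thus stood among the highest ratios of the well-counted genes of this class.

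Single nuclei varied widely. The level of Fnip2 in Gpnmb-positive nuclei had a lowest value of 0, a median of 2841 and a highest of 10006 CPM, against a lowest of 0, a median of 401 and a highest of 12336 CPM in other macrophages. For Fnip1 the lowest, median and highest were 162, 1544 and 5304 CPM in Gpnmb-positive nuclei, against 0, 378 and 3876 CPM in other macrophages. The distributions overlapped, although 18 of 21 Gpnmb-positive nuclei for Fnip2 and 20 of 21 for Fnip1 lay above the median of other macrophages. Fnip1 had a UMI in 21 of 21 Gpnmb-positive nuclei and Fnip2 in 19. The 3 nuclei with the most Fnip2 held 46.4% of the UMIs of Fnip2 in the class.

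High Fnip2 was not confined to nuclei with Gpnmb UMIs. Of 65 macrophage-lineage nuclei with at least 10 Fnip2 UMIs, 13 were Gpnmb-positive (of 21 in that class) and 12 Mmp12-high (of 109). A further 15 were stress (of 269), 10 resident-like (of 264) and 15 other macrophages (of 526). These UMIs are not scaled for depth, with a median of 4525 UMIs in Gpnmb-positive nuclei and 2762 in other macrophages. The highest level, 12336 CPM from 80 UMIs, was in a nucleus among other macrophages that had 0 Gpnmb UMIs. Of the 20 such nuclei with the highest Fnip2 CPM, 9 were Gpnmb-positive and 14 carried suffix 2.

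**Figure D2:**
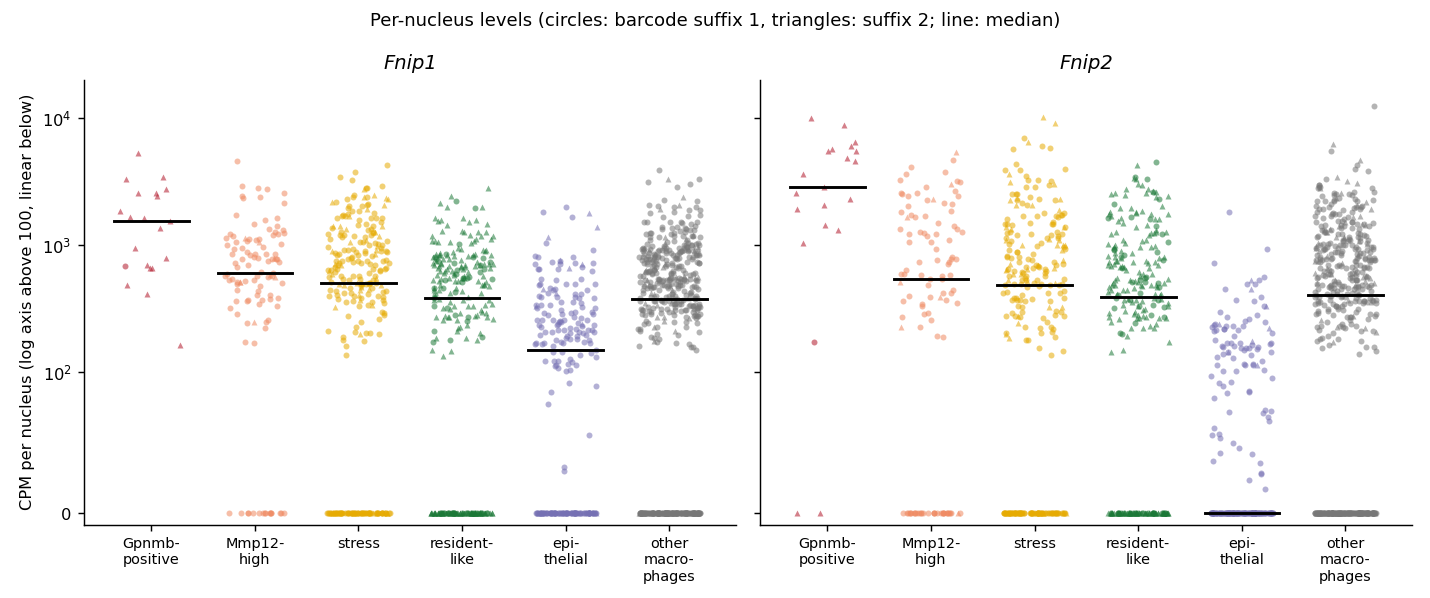
CPM of Fnip1 (left) and Fnip2 (right) in each nucleus of the 6 classes, on an axis that is logarithmic above 100 and linear below; circles are suffix 1, triangles suffix 2 and lines medians. The Fnip2 median is 2841 CPM in Gpnmb-positive nuclei and 401 CPM in other macrophages, and single nuclei of other classes reach the same levels.

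The class contrast was set against the barcode suffix, since 20 of 21 Gpnmb-positive nuclei carried suffix 2 and most other macrophages suffix 1. Within suffix 2, Fnip2 stood at 4628 CPM in Gpnmb-positive nuclei and 808 CPM in other macrophages, a ratio of 5.73 (4.81 to 6.83). Fnip1 stood at 1977 CPM in Gpnmb-positive nuclei and 526 CPM in other macrophages of that suffix, a ratio of 3.76 (2.97 to 4.77). Within a single suffix both genes were thus still at least 2-fold higher, Fnip1 by a ratio inside the pooled interval and Fnip2 by one just below it. Within suffix 1 the single Gpnmb-positive nucleus allowed no comparison.

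Suffixes also differed within some classes. In stress nuclei Fnip2 stood at 1330 CPM in suffix 2 and 727 CPM in suffix 1 (ratio 1.83, 1.55 to 2.15), and Fnip1 at 1045 CPM in suffix 2 and 689 CPM in suffix 1 (ratio 1.52, 1.27 to 1.81). Mmp12-high nuclei had 1964 CPM of Fnip2 in suffix 2 (8 nuclei) and 886 CPM in suffix 1 (ratio 2.22, 1.68 to 2.89), with Fnip1 at 722 CPM in suffix 2 and 798 CPM in suffix 1. Resident-like nuclei, the class best filled in suffix 2, had 661 CPM of Fnip2 in suffix 2 and 752 CPM in suffix 1 (ratio 0.879, 0.729 to 1.06). Fnip1 in these nuclei stood at 494 CPM in suffix 2 and 378 CPM in suffix 1 (ratio 1.31, 1.015 to 1.70). In other macrophages the Fnip2 ratio of suffix 2 to suffix 1 was 1.28 (1.08 to 1.49). The contrast of suffixes was thus not the same in every class, and what the suffixes stand for was not tested.

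**Figure D3:**
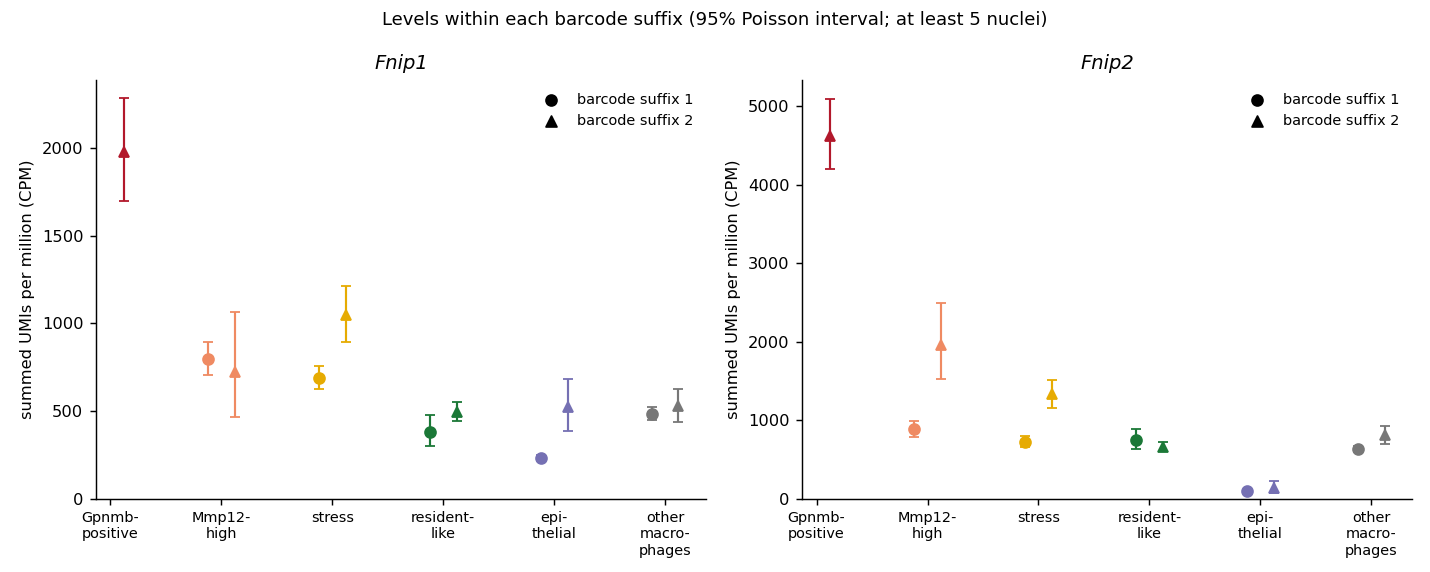
Summed CPM of Fnip1 (left) and Fnip2 (right) by class within each barcode suffix (circles suffix 1, triangles suffix 2) with 95% Poisson intervals, for classes with at least 5 nuclei. Within suffix 2, Fnip2 is at 4628 CPM in Gpnmb-positive nuclei and 808 CPM in other macrophages.

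The gate also set the size of the ratios. With Leiden clusters, made without the members, in place of gates, the cluster richest in Gpnmb (144 nuclei, 103 of suffix 2) had 3.80 times (3.47 to 4.16) the Fnip2 level of other macrophages, 2.39 times (2.12 to 2.68) the Fnip1 level and 2.64 times (1.72 to 4.04) the Flcn level. Fnip2, Fnip1 and Flcn thus were at least 2-fold higher in that cluster too, the FNIP genes by less than in the gated nuclei. The cluster is a broader group, named by the gate order. It had 726 CPM of Gpnmb, but 855 CPM of Mmp12 and 912 CPM of Fosb and Atf3. Suffix 2 made up 103 of its 144 nuclei, but 8 of 159 and 11 of 244 in the larger clusters of other macrophages. Its ratios were not split by suffix.

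Some stress genes were also higher in this class. Fosb and Atf3 summed to 1359 CPM in Gpnmb-positive nuclei and 83.8 CPM in other macrophages. That contrast follows in part from the gates, which took nuclei passing the stress gate out of other macrophages but not out of this class. The 6 further stress genes, which were in no gate, summed to 1420 CPM in Gpnmb-positive nuclei and 1004 CPM in other macrophages. The second sum was mostly Jun, at 848 CPM in Gpnmb-positive nuclei and 220 CPM in other macrophages, while the heat shock gene Hspa1a was at 30.7 CPM in Gpnmb-positive nuclei and 226 CPM in other macrophages. Hspa1b was also lower, at 81.7 CPM in Gpnmb-positive nuclei and 209 CPM in other macrophages. Nr4a1 stood at 51.1 CPM in Gpnmb-positive nuclei, from only 5 UMIs, and at 71.0 CPM in other macrophages, so that its direction could not be read. Gpnmb-positive nuclei that passed the stress gate (11) had 2762 CPM of Fnip1 (2335 to 3245), and those that did not (10) had 858 CPM (607 to 1177). Fnip2 stood at 4965 CPM (4386 to 5599) in the 11 and at 3635 CPM (3095 to 4241) in the 10. With every nucleus passing the stress gate left out of the other macrophage classes, an alternative added after the data were seen, Fnip2 was the only member still at least 2-fold higher in Gpnmb-positive nuclei; its ratio was 5.52 and that of Fnip1 1.75. Of the markers of other cell types, the epithelial list stood at 30.7 CPM with 12 of 15 genes at 0, Epcam and Krt8 among them, against 246 CPM in other macrophages. The T and NK cell, B cell, fibroblast, mast cell and dendritic cell lists were at 0 in Gpnmb-positive nuclei, each with an upper limit of 37.7 CPM. In other macrophages these lists stood at 3.64, 6.07, 21.9, 0 and 83.2 CPM, in that order, all but the last within that limit. The neutrophil list had 7 UMIs there, all of Csf3r (71.5 CPM, against 92.9 CPM for the list in other macrophages), and the endothelial list 4 UMIs (40.9 CPM, against 34.6 CPM in other macrophages). The macrophage list stood at 4536 CPM there against 7736 CPM in other macrophages.

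The balance between the FNIP genes also differed between classes. Fnip2 made up 69.7% (65.9 to 73.3) of the summed FNIP UMIs in Gpnmb-positive nuclei, 55.4% in Mmp12-high, 52.8% in stress, 59.2% in resident-like nuclei and 57.4% (55.1 to 59.6) in other macrophages. In epithelial nuclei the share was 27.7% (24.9 to 30.7), so that Fnip1 was the more counted of the pair.

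Fnip2 overlaps the predicted genes Gm3513 on its own strand and Gm17359 on the other, with 9 and 27 UMIs over all nuclei against 3650 UMIs of Fnip2. Reads shared between Fnip2 and Gm3513 could not be told apart from these counts.

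Flcn, the catalytic subunit of the complex, was sparsely counted. It had 7 UMIs in Gpnmb-positive nuclei (71.5 CPM, 28.8 to 147) and 56 in other macrophages (34.0 CPM, 25.7 to 44.2), a ratio of 2.10 whose interval (0.809 to 4.63) includes 1. Mmp12-high nuclei had 63.2 CPM, with a ratio of 1.86 (1.11 to 3.03). Stress, resident-like and epithelial nuclei had 49.9, 50.2 and 23.9 CPM, each with an interval of the ratio to other macrophages that includes 1. In Gpnmb-positive nuclei not passing the stress gate only 1 UMI of Flcn was counted, so that its direction there could not be read.

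Of the Rag genes, Rragc was counted well enough to compare. Its product carries the guanine nucleotide on which folliculin acts. Rragc stood at 225 CPM (141 to 340) in Gpnmb-positive, 149 CPM in Mmp12-high, 213 CPM (183 to 247) in stress, 169 CPM in resident-like, 42.7 CPM in epithelial nuclei and 137 CPM (119 to 156) in other macrophages. The ratio to other macrophages was 1.65 (1.01 to 2.55) in Gpnmb-positive and 1.56 (1.27 to 1.91) in stress nuclei. It was 1.09 (0.805 to 1.46) in Mmp12-high and 1.23 (0.997 to 1.52) in resident-like nuclei, whose intervals include 1. In Gpnmb-positive nuclei Rragc thus lay nearer to other macrophages than the FNIP genes did, while in stress nuclei its ratio was like that of Fnip1. The Gpnmb-positive level of Rragc was 299 CPM (171 to 485), from 16 UMIs, in the 11 nuclei passing the stress gate. In the 10 that did not it was 136 CPM (49.7 to 295), from 6 UMIs, against the 137 CPM of other macrophages. The intervals of these 2 parts overlap, so a difference between them could not be read. Without nuclei passing the stress gate the ratio was 0.992 (0.360 to 2.19). In Mmp12-high nuclei the direction of Rragc was not settled. Its ratio was 2.25 (0.982 to 4.73) in suffix 2 alone, from 8 Mmp12-high nuclei. After a single random thinning to 1000 UMIs it was 0.569 (0.2503 to 1.14), and both intervals include 1.

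Rragd, whose product can take the place of RagC, had only 52 UMIs over all nuclei. In Gpnmb-positive nuclei 7 UMIs in 5 of 21 nuclei gave 71.5 CPM (28.8 to 147), against 3 UMIs in 526 other macrophages, or 1.82 CPM (0.376 to 5.32). The ratio from these counts was 39.3 (8.97 to 235), and the 7 UMIs came from suffix 2. Of these UMIs, 6 lay in the 11 nuclei passing the stress gate (112 CPM) and 1 in the other 10 (22.6 CPM). The gene had too few UMIs to enter the counts of members past 2-fold in any macrophage class. Resident-like nuclei had 8 UMIs in 3 nuclei (8.93 CPM) and epithelial nuclei 27 UMIs in 21 nuclei (9.61 CPM). The ratio to other macrophages was 4.90 (1.18 to 28.7) in resident-like and 5.28 (1.62 to 27.2) in epithelial nuclei. A single nucleus held 6 of the 8 resident-like UMIs, and without it the ratio was 1.23 (0.103 to 10.7), so that the resident-like value rests on that nucleus.

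Rraga, which encodes the main RagA-type subunit, had no UMI in Gpnmb-positive nuclei, where 3 counts would be 30.7 CPM. It stood at 25.3 CPM in Mmp12-high, 24.3 CPM in stress, 16.7 CPM in resident-like, 18.2 CPM in epithelial nuclei and 15.8 CPM in other macrophages. All the Rraga intervals overlap, so no difference between classes was detectable at this depth. Rragb had between 0 and 3 UMIs in each of the 6 classes and was not compared.

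**Figure D4:**
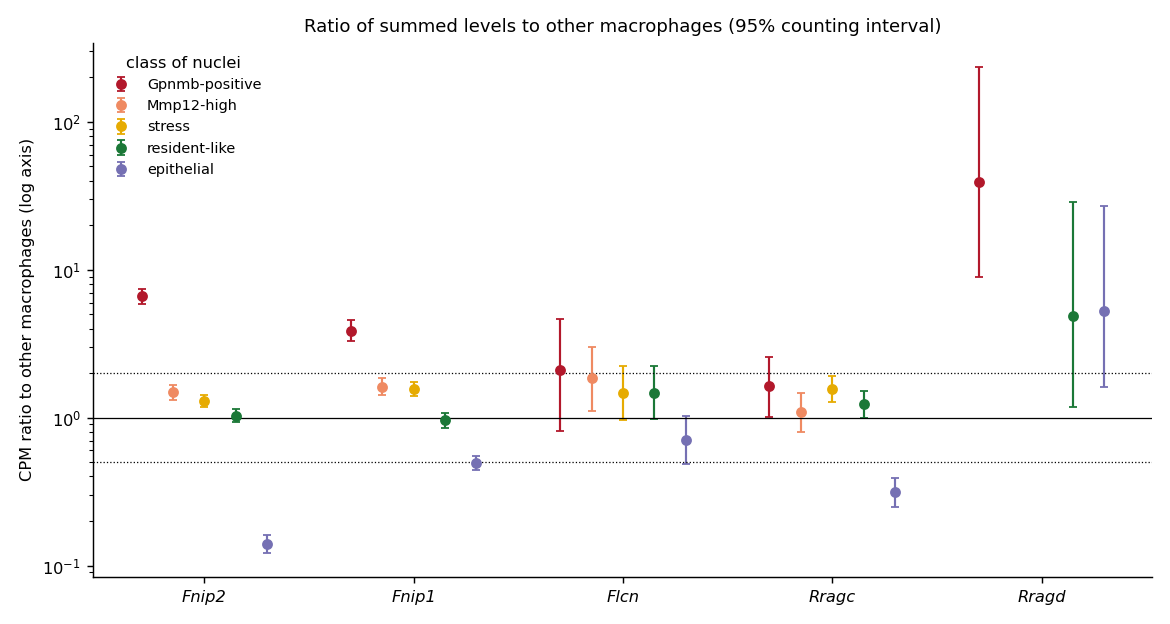
Ratio of summed CPM to other macrophages on a log axis for 5 members in the other 5 classes, with 95% counting intervals; dotted lines mark ratios of 2 and 0.5, and Rragd in Mmp12-high and stress nuclei, with under 10 UMIs, is not drawn. Fnip2 has the ratio farthest above 1 in Gpnmb-positive nuclei (6.62) among the FNIP genes, Flcn and Rragc, and the ratio farthest below 1 in epithelial nuclei (0.141).

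In Mmp12-high nuclei no member was at least 2-fold higher or had a ratio of 0.5 or less, against 4.83% and 12.0% of the genes measured. In stress nuclei the count of members was again 0 in each direction, against 5.48% and 8.62% of genes. In resident-like nuclei it was 0 as well, against 6.81% and 6.92%. Smaller differences lay outside the counting interval: Fnip1 was 1.62 (1.41 to 1.84) and Fnip2 1.49 (1.32 to 1.67) times the level of other macrophages in Mmp12-high nuclei. In stress nuclei Fnip1 was 1.56 (1.40 to 1.73) and Fnip2 1.29 (1.17 to 1.42) times as high. By the pooled counts, resident-like nuclei could not be told apart from other macrophages in Fnip1 (0.958, 0.849 to 1.08) or Fnip2 (1.03, 0.934 to 1.14). Within suffix 2 the ratio was 0.817 (0.689 to 0.973) for Fnip2 and 0.940 (0.763 to 1.16) for Fnip1. Within suffix 1 it was 1.19 (0.990 to 1.41) for Fnip2 and 0.783 (0.609 to 0.995) for Fnip1. The pooled ratios thus hide small differences that depend on the gene and the suffix.

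Epithelial nuclei stood below other macrophages in Fnip2, Rragc and, by the pooled counts, Fnip1. Of the 6 members measured, Fnip2 (0.141 times, 0.122 to 0.161), Rragc (0.313, 0.248 to 0.392) and Fnip1 (0.494, 0.445 to 0.548) had 0.5 times the level of other macrophages or less, against 15.2% of the genes measured. Rragd, 1 of the 6, was at least 2-fold higher, against 28.1% of genes. Of its 30 UMIs over both classes, 27 lay in epithelial nuclei. It thus entered the count only through the class where it was high, so this call was set by the filter. Flcn (0.702, 0.485 to 1.02) and Rraga (1.15, 0.704 to 1.92) had intervals that include 1. Within the 17 epithelial nuclei of suffix 2, Fnip1 stood at 520 CPM against 526 CPM in other macrophages of that suffix, a ratio of 0.989 (0.701 to 1.38), while Fnip2 kept a low ratio of 0.161 (0.0842 to 0.282). The low Fnip1 of epithelial nuclei therefore rested on suffix 1, where the ratio was 0.479 (0.429 to 0.535).

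Summed over the 7 genes, the members took 6631 CPM in Gpnmb-positive, 2016 CPM in Mmp12-high, 1904 CPM in stress, 1396 CPM in resident-like, 430 CPM in epithelial nuclei and 1337 CPM in other macrophages. The ratio to other macrophages was 4.96 (4.54 to 5.41), 1.51 (1.39 to 1.64), 1.42 (1.33 to 1.52), 1.04 (0.973 to 1.12) and 0.321 (0.299 to 0.345) in the first 5 of these classes, in that order. The sum is mainly a measure of the FNIP genes, which gave 94.5% of it in Gpnmb-positive nuclei and 85.8% in other macrophages.

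Detection was compared after every nucleus was thinned to 1000 UMIs, which left out nuclei with fewer (12 of 269 stress and 32 of 526 other macrophage nuclei, for example). Fnip1 then had a UMI in 90.5% (69.6 to 98.8) of Gpnmb-positive, 50.5% of Mmp12-high, 47.1% of stress, 38.5% of resident-like, 18.8% of epithelial nuclei and 40.3% of other macrophages. Fnip2 had one in 81.0% (58.1 to 94.6) of Gpnmb-positive, 48.6% of Mmp12-high, 44.4% of stress, 39.6% of resident-like, 9.86% of epithelial nuclei and 39.5% of other macrophages. Before thinning the shares were 90.5% and 65.8% for Fnip2 in Gpnmb-positive nuclei and other macrophages. At equal depth Gpnmb-positive nuclei thus still had the highest share and epithelial nuclei the lowest for both genes.

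Rragc was seen in 7 of 21 Gpnmb-positive nuclei (33.3%, 14.6 to 57.0), 6.54% of Mmp12-high, 17.9% of stress, 17.7% of resident-like, 3.76% of epithelial nuclei and 13.6% of other macrophages at equal depth. Flcn was seen in 28.6% of Gpnmb-positive nuclei and 9.32% of other macrophages before thinning. In the thinning used for the other genes it was seen in 0 of 21 Gpnmb-positive nuclei (0 to 16.1%). That thinning, a single random draw, gave 6.54% of resident-like nuclei and 2.23% of other macrophages. Over all possible thinnings its mean share was 4.96% in Gpnmb-positive nuclei, 4.33% in resident-like nuclei and 3.01% in other macrophages. With 21 nuclei the Gpnmb-positive share cannot be told apart from that of other macrophages. No class here is known to lack these genes, so that free RNA in the droplets could not be measured from a class without them, and its part in these shares was not tested.

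Fnip1 and Fnip2 were found together in the same nucleus in 76.2% (16 of 21; 52.8 to 91.8) of Gpnmb-positive, 22.4% of Mmp12-high, 24.5% of stress, 17.3% of resident-like, 2.35% of epithelial nuclei and 17.4% (86 of 494; 14.2 to 21.1) of other macrophages. The product of the single shares gave 15.4 Gpnmb-positive nuclei against the 16 found, and 78.6 other macrophages against the 86 found. In stress nuclei 63 were found against 53.7 from the product, in resident-like nuclei 45 against 39.6, and in Mmp12-high nuclei 24 against 26.2. The interval of the observed share includes the product in all 6 classes. In Gpnmb-positive nuclei the single shares (19 and 17 of 21) leave little room for any other overlap, so the count there says nothing on whether the 2 genes go together. Fnip2 and Rragc were found together in 7 of 21 Gpnmb-positive nuclei (product 5.67), 23 of 257 stress (20.4), 20 of 260 resident-like (18.2) and 26 of 494 other macrophage nuclei (26.5). All 7 of the Gpnmb-positive nuclei with a Rragc UMI also had a Fnip2 UMI. Pairs with Flcn were too rare to read, with at most 10 nuclei in a class.

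**Figure D5:**
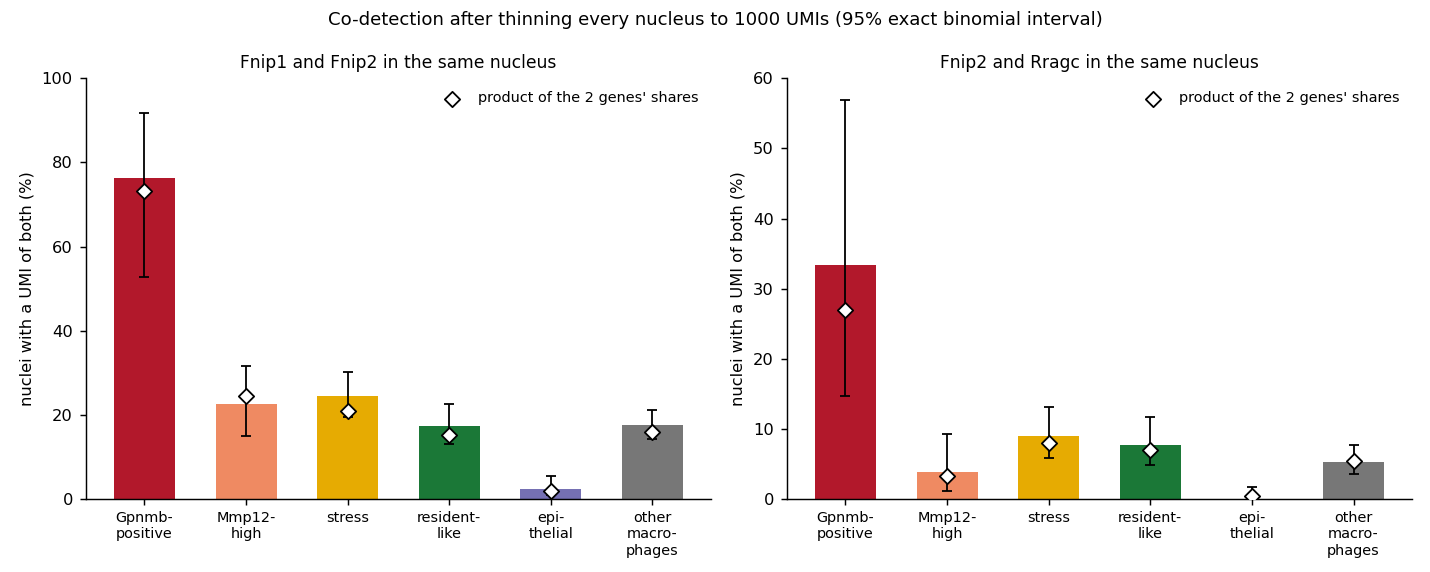
Share of nuclei with a UMI of both genes after thinning to 1000 UMIs, for Fnip1 and Fnip2 (left) and Fnip2 and Rragc (right), with 95% exact binomial intervals; diamonds mark the product of the single shares within the class. Fnip1 and Fnip2 were found together in 76.2% of Gpnmb-positive nuclei and 17.4% of other macrophages, beside diamonds at 73.2% and 15.9%.

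At equal depth 81.0% of Gpnmb-positive nuclei had UMIs of 2 or more of the 7 members and 4.76% had none. In other macrophages 25.3% had 2 or more and 31.8% none, and in epithelial nuclei 3.29% had 2 or more and 66.2% none.

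The rest of the pathway did not follow the FNIP genes as a whole in Gpnmb-positive nuclei. Of the MiT/TFE factors, which folliculin and the Rags control, none of 4 was at least 2-fold higher: Tfeb stood at 143 CPM in Gpnmb-positive nuclei and 248 CPM in other macrophages (ratio 0.578, 0.313 to 0.980), and Tfe3 was lower still, at 10.2 and 67.4 CPM in these classes (0.152, 0.00381 to 0.862). Mitf stood at 756 CPM in Gpnmb-positive nuclei and 559 CPM in other macrophages. Among their known lysosomal targets, 6 of 8 genes were at least 2-fold higher (Sqstm1, Ctsd, Atp6v1h, Lamp1, Gla and Neu1), with a median ratio of 2.40 against 0.842 over all genes. Ctsd, the protease cathepsin D, stood at 1522 CPM in Gpnmb-positive nuclei and 299 CPM in other macrophages (5.09, 4.21 to 6.12). Gla, an alpha-galactosidase, stood at 184 CPM in Gpnmb-positive nuclei and 24.9 CPM in other macrophages (7.39, 3.996 to 13.2). The lysosomal list was written with earlier results of these nuclei known, so that its count describes these data only.

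The upstream parts of amino acid sensing gave mixed values in Gpnmb-positive nuclei. Of the Ragulator anchor and the arginine sensor Slc38a9, 3 of 6 genes had enough UMIs, and Lamtor3 alone was at least 2-fold higher (2.68, 1.02 to 5.99). Of the GATOR complexes, which control RagA and RagB, and their anchor KICSTOR, 5 of 11 genes were measured: Wdr59 was at least 2-fold higher (3.61, 1.22 to 8.88) and Nprl3 (0 UMIs, 0 to 1.19) and Seh1l (1 UMI, 0.00618 to 1.43) had a ratio of 0.5 or less with intervals that include 1. Of mTORC1 and its TSC-Rheb switch, 5 of 9 were measured, with Tsc1 (2.08, 1.29 to 3.22) higher and the mTOR inhibitor Deptor (0.112, 0.0135 to 0.409) lower. Of the AMPK subunits, Prkag2 was higher (2.38, 1.51 to 3.60), Prkag1 lower (0.224, 0.0269 to 0.825), and Prkab2 had 1 UMI (0.481, 0.0118 to 2.86). The C9orf72 complex, which resembles the folliculin complex in its fold, had Smcr8 higher (2.20, 0.766 to 5.15) and Wdr41 lower (0.426, 0.182 to 0.850).

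HSP90 is the chaperone that FNIP1 and FNIP2 bind as co-chaperones. Its 2 genes ran the other way: Hsp90aa1 stood at 327 CPM in Gpnmb-positive nuclei and 626 CPM in other macrophages (0.522, 0.355 to 0.742). In stress nuclei Hsp90aa1 stood at 3830 CPM (ratio 6.12) and in Mmp12-high nuclei at 1898 CPM (ratio 3.03), and Hsp90ab1 was also at least 2-fold higher in both. In Mmp12-high nuclei Lamtor1, Lamtor4, Deptor and Prkaa1 had 0.5 times the level of other macrophages or less, Lamtor4 with an interval that includes 1 (0.0898 to 1.503), and Sqstm1 and Gla at least 2-fold higher. In stress nuclei Sqstm1 (4.15) and Gla (5.77) were higher, and Tfec (0.184 to 1.01), Lamtor5 (0.156 to 1.15) and Mcoln1 (0.115 to 0.801) had a ratio of 0.5 or less, the first 2 with intervals that include 1. In resident-like nuclei Lamtor3, Prkag2, Lamp1 and Gla were at least 2-fold higher and Seh1l had a ratio of 0.5 or less. In epithelial nuclei 4 of 4 MiT/TFE factors had a ratio of 0.5 or less, Mitf at 51.6 CPM against 559 CPM in other macrophages (0.0923).

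By the correlation of log2(CPM + 1) over the 6 classes, among 6145 genes with at least 200 UMIs, the genes most like each member were listed as a description. For Fnip2 they were Gas2l3, Snx1, Camk2d, 3110082I17Rik and Edem1 (Pearson r 0.997 to 0.985). For Fnip1 they were Atp6v1c1, a subunit of the lysosomal proton pump, Lasp1, Edem1, Ago2 and Abl2 (0.997 to 0.986), so that Edem1 was on both lists. For Flcn they were Lmbrd1, a lysosomal cobalamin exporter, Furin, Diaph1, Anxa5 and Slc8b1 (0.997 to 0.970). For Rragc they were Ncoa3, Il17ra, Cxcr4, Map7d1 and Ctsb (0.999 to 0.991). Fnip1 and Fnip2 had an r of 0.965 with each other. The 6 points share 2 libraries, and the Gpnmb-positive and epithelial classes lie at the ends.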

How the data were processed

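Per the submitters' processing notes, reads were processed with Cell Ranger 5.0 on build mm10, and per the file headers the matrix was written by software version 5.0.1. The authors deposited UMI counts per gene and barcode, not normalized, as 1 matrix of both samples. The counting of introns, the calling of barcodes and any levelling of depth are not given in the sources that were used.

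From these counts, barcodes with at least 500 UMIs, at least 300 genes and at most 5% mitochondrial UMIs were kept. Barcodes rich in cytoplasmic RNA had at least 3% of UMIs in ribosomal protein genes. A lineage needed at least 3 marker UMIs and 3 times the share of the other lineage. Scrublet, run per suffix, marked 5 barcodes of suffix 2 and 0 of suffix 1 as doublets, which were removed. The gate minimum of 500 CPM with 2 UMIs was set after the members' levels had been seen at 500, 1000 and 2000 CPM. Leiden clusters were put in classes at the same 500 CPM, taken after 1000 CPM had left no Gpnmb or Mmp12 cluster. The members and gene lists were chosen with earlier results of these data known.

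UMIs were summed per class and scaled to CPM, with exact Poisson intervals for levels, exact conditional binomial intervals for ratios, and Clopper-Pearson intervals for shares. Genes with at least 30 UMIs over both classes entered the counts past 2-fold. Named genes were the 7 members, genes of the pathway lists past 2-fold, and for each member the 5 genes of the most similar pattern; other genes named were chosen after their values were seen. Nuclei are not replicates, and the intervals leave out differences between animals. Ratios and their intervals were checked on simulated Poisson counts, which leave out the spread between nuclei. The depth reached by thinning was checked on the Gpnmb-positive nuclei. Python 3.11.15, scipy 1.17.1 and scanpy 1.11.5 were used. Gene positions are from the GENCODE annotation of GRCm38, and promoter windows from RefSeq.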

Additional observations from a re-analysis of the deposited data

Results flagged for a closer look

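Barcodes outside the 6 classes also held UMIs of the members. Summed over the 7 genes, the level was 675 CPM (602 to 754) in 286 barcodes rich in cytoplasmic RNA, 865 CPM (735 to 1012) in 95 nuclei of no clear lineage, and 329 CPM (158 to 604) in 13 T or NK nuclei, against 1337 CPM in other macrophages. They are given because these barcodes enter none of the comparisons and their levels lie above the 6.47, 16.6 and 98.6 CPM that 3 counts would give. Fnip1 and Fnip2 were near each other in the barcodes rich in cytoplasmic RNA, at 257 and 254 CPM, and Rraga stood at 45.3 CPM there against 15.8 CPM in other macrophages. These barcodes had a median of 702 UMIs, and 4925 CPM of epithelial markers. The part of free or cytoplasmic RNA in these levels was not tested.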

How the results depend on the processing

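Over 30 ratios of a class to other macrophages, 361 values under 13 alternatives were computed, of which 303 lay inside the counting interval of the value reported. The sum of the 7 members in Gpnmb-positive nuclei, 4.96 times other macrophages, was 5.65 with stricter gates, 2.99 with Leiden clusters, 4.13 with equal weight per nucleus, 4.53 thinned to 1000 UMIs, 4.49 without the nucleus richest in members, and 3.49 without nuclei passing the stress gate. In Mmp12-high nuclei it was 1.68 with looser gates, 2.05 in suffix 2 alone and 1.37 after thinning. In stress nuclei it was 1.32 with stricter gates, 1.28 with Leiden clusters, 1.30 in suffix 1 alone and 1.77 in suffix 2 alone. In resident-like nuclei it was 0.963 with stricter gates, 1.13 with looser gates and 0.919 in suffix 2 alone, so that its side of 1 depends on the gate and the suffix. In epithelial nuclei it was 0.378 with Leiden clusters and 0.533 in suffix 2 alone.

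Counts of members past 2-fold moved by few genes. At least 2-fold higher were 1 in Gpnmb-positive nuclei without those passing the stress gate, 1 in Mmp12-high nuclei with stricter gates and 2 in suffix 2 alone, 1 in stress nuclei with Leiden clusters, and 1 in resident-like nuclei after thinning. In epithelial nuclei the count was 0 with looser gates, in either suffix alone, with at least 1000 UMIs, after thinning and without the nucleus richest in members, as Rragd had exactly the 30 UMIs required. With stricter gates 1 member had a ratio of 0.5 or less in Gpnmb-positive nuclei. Flcn in Gpnmb-positive nuclei turned to 0.664 without nuclei passing the stress gate, from 1 UMI. Among the alternatives that gave a value for it, Fnip2 in Gpnmb-positive nuclei stayed between 3.80 and 7.95 times other macrophages, and Fnip1 between 1.75 and 3.995.

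Co-detection of Fnip1 and Fnip2 followed the depth chosen: at 500 UMIs it was 10.1% in Mmp12-high, 7.44% in stress and 5.30% in resident-like nuclei and 6.65% in other macrophages. At 2000 UMIs it was 43.2% in Mmp12-high, 42.9% in stress, 33.8% in resident-like and 7.74% in epithelial nuclei and 33.1% in other macrophages. With Leiden clusters it was 37.4% in the cluster richest in Gpnmb (144 nuclei) and 19.0% in stress nuclei, and in suffix 1 alone 9.84% in resident-like nuclei. The cause of these shifts was not tested, except that fewer UMIs per nucleus give fewer detections by construction. Other alternatives for these results stayed within 1.5 times the count or inside the interval. No paired analysis was possible because each genotype had 1 sample and the barcode suffixes could not be assigned to genotypes. Depth limits Flcn, Rraga, Rragb and Rragd, with at most 7 UMIs each in Gpnmb-positive nuclei. The gates' boundaries, the 21 nuclei of that class and its 20 nuclei of 1 suffix limit what its levels stand for.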
